A study of Mus musculus with 6 samples.

Results

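The genes described are 7 transcription factor genes linked to T cell exhaustion, namely Tox, Tox2, Nr4a1, Nr4a2, Nr4a3, Irf4 and Batf. For each, all H3K4me3 regions called in the gene body or within 5 kb of it (GRCm38) were taken. This gave 37 regions of 46565 in the Atg5 knockout (KO) list and 17 regions of 48546 in the wild-type (WT) list. H3K4me3 is a histone mark that sits around active promoters. It was mapped by native chromatin immunoprecipitation and sequencing in CD8+ lymphocytes recovered from e0771 tumours, a mouse mammary tumour line, grown in C57BL/6 mice. KO cells came from mice in which Cre had deleted Atg5, a gene needed for autophagy, and WT cells came from mice of the same strain background with intact Atg5. The driver of Cre, the deleted part of Atg5, the age and sex of the mice and how many mice went into a library are not stated by the labels. Each genotype had 1 H3K4me3 library, so no difference below has a replicate check and no test between genotypes was possible.

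Exhaustion is the state that CD8 T cells reach under lasting antigen, as in tumours, with inhibitory receptors on the surface and reduced cytokine output. Signals from the T cell receptor raise calcium and activate NFAT, which induces the NR4A nuclear receptors and the HMG-box factors TOX and TOX2. BATF, a partner of JUN proteins, and IRF4 bind DNA together at composite sites and are also induced through the receptor. In mouse models TOX is required for exhausted cells to persist, and NR4A factors drive part of the same programme.

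Before the genes themselves, the labelled cell type was compared with its markers. All 15 T cell marker genes were at least 1.5 times longer in coverage in KO (by the rule given below), against 14.1% of all genes with coverage, with a sum of 247575 bp under regions in KO and 34052 bp in WT. Regions covered 15 of the 15 in KO and 12 of the 15 in WT. Cd8a, Cd3e and Thy1 had no region in the WT list, whereas Cd8b1 (19808 bp in KO, 705 bp in WT) and Cd3g (11466 bp in KO, 3321 bp in WT) had some in both. Zap70, Lat and Bcl11b had WT regions but none within 2.5 kb of the start. The windows of Cd3d and Cd3g overlap, so the sums count their shared regions in both. Those of Cd3g, Cd247, Lck, Zap70, Cd5 and Lat hold further coding genes, as do some windows of the other marker lists, and such regions are counted with the markers. Myeloid markers were covered at 14 of 14 genes in each list (53693 bp in KO, 57005 bp in WT), epithelial tumour markers at 8 of 8 (27381 bp in KO, 26748 bp in WT) and fibroblast and endothelial markers at 10 of 10 (39724 bp in KO, 51280 bp in WT). By the same rule 4 myeloid and 6 fibroblast and endothelial markers were shorter in KO and 0 of either list were longer, and of the epithelial markers 2 were longer and 1 was shorter. B cell markers were covered at 6 of 7 genes in KO and 5 of 7 in WT, NK cell markers at 3 of 5 in KO and 1 of 5 in WT, and CD4 and regulatory T cell markers at 4 of 4 in KO and 3 of 4 in WT. Of these lists 3 B cell, 2 NK cell and 2 CD4 and regulatory T cell markers were longer in KO and 0 were shorter, where 11.8% of all genes with coverage were shorter. In a bulk library, fewer cells carrying a mark and less of the mark per cell cannot be told apart. The part of the T cell markers in the differences below was not tested.

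Covered length, the number of bp under regions in the gene body and 5 kb on either side, was longer in KO for all 7 genes. By any difference, 46.7% were longer and 53.2% shorter in KO among the 16411 protein-coding genes with coverage in either list. A gene was called longer where its KO length was at least 1.5 times its WT length after 100 bp was added to each. By that rule 4 of the 7 genes (Tox, Tox2, Nr4a1 and Irf4) were longer in KO and 0 were shorter, against 14.1% and 11.8% of all genes with coverage. The median difference was 3069 bp over the 7 genes and −50 bp over all genes with coverage. Nr4a1, with a ratio of 1.82, had the lowest ratio of the 4 genes called, and Nr4a3, with a ratio of 1.45, lay just outside the rule. With the 20000 most significant regions kept in each list the median was 1261 bp, Nr4a2 turned to −117 bp and Tox2 was no longer called, and Nr4a1 was no longer called with 10 kb added to the gene, where −log10 q reached 10 or at a ratio of 2.

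**Figure D1:**
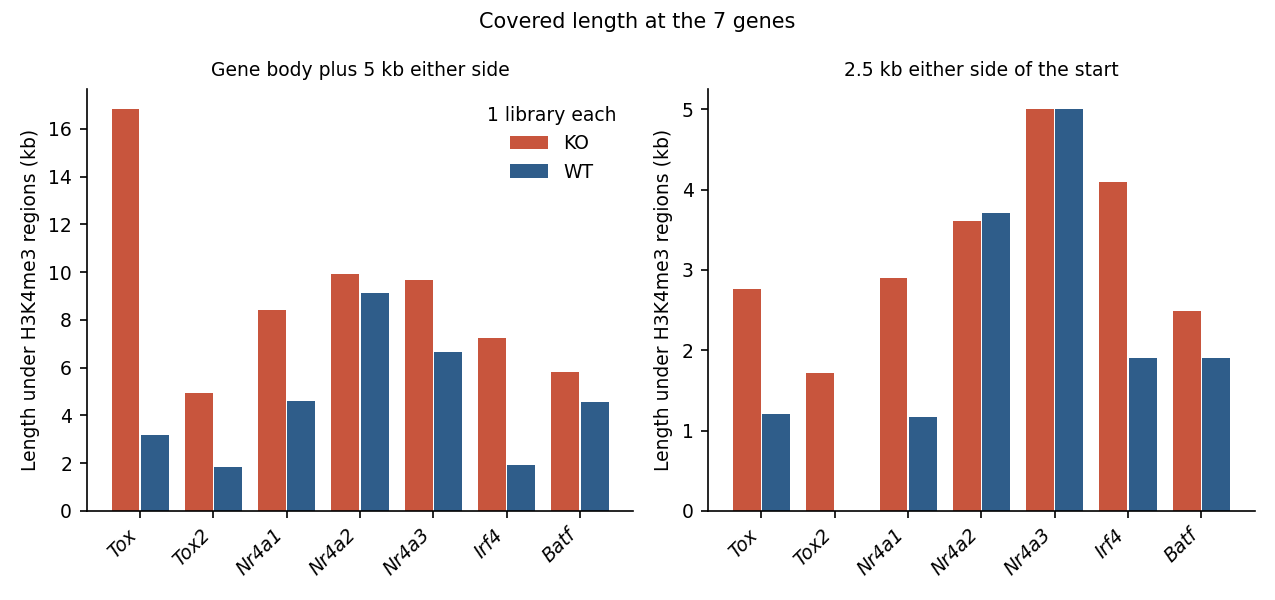
Length under H3K4me3 regions (kb) at each gene in the KO library and the WT library, over the gene body plus 5 kb (left) and within 2.5 kb of the start (right), with 1 library per bar and no error bar. KO bars are taller at all 7 genes on the left, while on the right Nr4a2 and Nr4a3 differ by −105 bp and 0 bp and Tox2 has no WT bar.

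The KO list also held more separate regions at these genes. Of its 37 regions, 20 had no WT region overlapping by 1 bp or more. That is 54.05% of the KO regions, against 24.7% of all KO regions called that close to any protein-coding gene. The shared part, 45.95%, had an exact (Clopper-Pearson) 95% interval of 29.5 to 63.1%, which covers counting error only. Without Tox, 11 of 25 KO regions (44.0%) had no WT region. All 17 WT regions overlapped a KO region, whereas 22.0% of all WT regions near genes did not. The 20 regions had folds over background from 3.16 to 8.84 (the authors' values) with a median of 5.80. The median was 4.98 over all KO regions with no WT region and 10.5 over all shared KO regions. They had 11 to 31 reads at the summit, 10 of them reached a −log10 q of 10, and 18 had their summit inside the gene. Only 1 of the 20 lay within 2.5 kb of a start, that of Tox2. With 20000 regions kept in each list, 12 KO regions were left at the 7 genes, of which 10 were shared with WT. Reads at a summit are given below for each library as they stand and were not scaled between libraries.

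**Figure D2:**
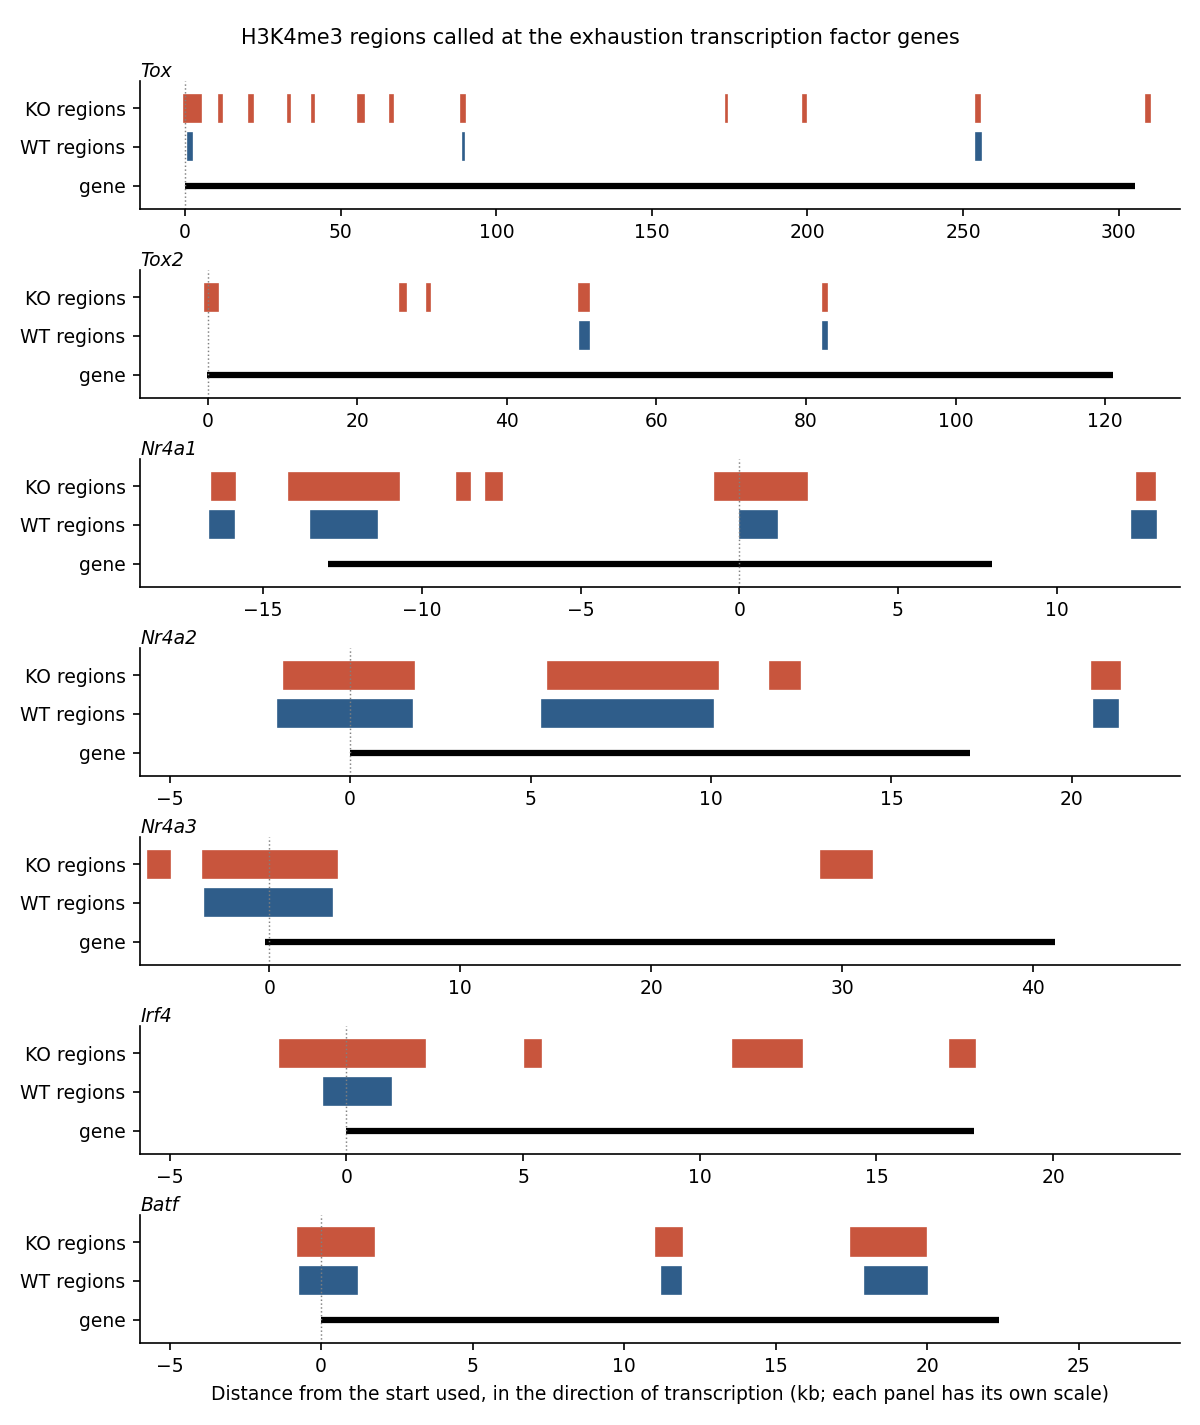
H3K4me3 regions of the KO library (upper row of each panel) and the WT library (middle row) at the 7 genes, drawn by distance in kb from the start used, with the gene as a black bar. Each WT region has an overlapping KO region above it, and 20 KO regions have no WT region below them, 9 of these at Tox.

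Of the 7 genes, Tox had the most KO regions without a WT counterpart, 9, and also the longest window, 315205 bp. Tox2 and Irf4 had 3 each, in windows of 131115 bp and 27749 bp, so these counts are not alike per length. Tox (chr4:6686353-6991557), an HMG-box factor needed for the exhausted state in mice, had 12 regions covering 16833 bp in the KO library and 3 regions covering 3166 bp in the WT library. These lengths were 5.34% of its window in KO and 1.0% in WT. The ratio of 5.18 was the highest of the 7 genes and lay at percentile 96.9 of all genes with coverage.

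At the 5′ end of Tox the KO region spanned 5241 bp (chr4:6986578-6991818) with 70 reads at its summit, and the WT region spanned 1204 bp (chr4:6989331-6990534) with 17 reads at its summit. Their summits lay 18 bp apart, close to 1.8 kb inside the gene. The upstream edge of the KO region lay at −261 bp from the gene's end of higher coordinate, which was used as the start because the promoter table holds no Tox entry. The WT region began 1023 bp inside the gene, so the start itself was under a KO region only. The KO region ranked at percentile 97.6 for width in the KO list, and the WT region at percentile 53.9 in the WT list. These ranks come from lists of different lengths and describe each list alone.

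Further inside Tox, 6 KO regions between 11.55 and 66.32 kb from the start had no WT counterpart, and they were 644 to 1688 bp wide. A region at 89.46 kb was 1548 bp wide in KO (34 summit reads) and 284 bp wide in WT (11 summit reads, near the lowest of 10 that any called summit held). In the 3′ part of the gene, at about 255 kb, the region was 1525 bp wide in KO with a fold of 8.81 in its list and 1678 bp wide in WT with a fold of 14.6 in its list. That region was the widest and strongest of the WT regions at Tox, and it was one of 5 pairs at the 7 genes that were narrower in KO. The lncRNA gene Gm11802 lies inside the Tox window, and regions cannot be assigned between it and Tox.

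Tox2 (chr2:163203058-163324172), the paralog of Tox that acts with it in exhausted mouse T cells, had 5 regions covering 4923 bp in KO and 2 regions covering 1854 bp in WT. The start used carried a region in KO only, 1717 bp wide (chr2:163202835-163204551) with a fold of 7.19 and 25 summit reads. The promoter table holds 5 entries for Tox2, and this start was kept because it had the most coverage over both lists. All of that coverage was in KO, so the KO region itself decided the choice. No WT region lay within 2.5 kb of that start, which says that none passed the calling threshold and not that the mark was absent. The 250 bases before the start, all under the KO region, are shown because they were covered in KO and not in WT. The same holds for the 250 bases of Nr4a1 further on, but there a WT region begins 15 bp after the start. Capitals mark CTA and TAG parted by any 4 bases, searched for MEF2, and GGGA and CC parted by any 4 bases, searched for NF-kappaB. Each was read on either strand. Because any 4 bases were allowed, these letters are looser than the sites of either factor, and a match does not show such a site.
Tox2, chr2:163202877-163203126, + strand: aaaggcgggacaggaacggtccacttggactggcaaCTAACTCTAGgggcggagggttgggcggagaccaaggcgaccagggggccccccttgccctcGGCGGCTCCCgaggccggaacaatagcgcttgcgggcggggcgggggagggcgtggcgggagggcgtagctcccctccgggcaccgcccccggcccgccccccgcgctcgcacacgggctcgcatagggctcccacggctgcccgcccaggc
These motifs were found in 3.20% and 17.6% of the 32851 promoters of this length in the RefSeq table (GRCm38.p6). The GC content of the Tox2 stretch was 75.2%, and the median promoter had 52.4%.

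Inside Tox2, the regions of both lists lay close together. At about 50 kb from the start the region was 1330 bp wide in KO and 1329 bp wide in WT, with 37 summit reads in KO and 57 in WT. At about 83 kb it was 546 bp wide in KO and 525 bp in WT. The 2 other KO regions, 927 bp and 403 bp wide, lay 26.0 and 29.32 kb from the start and had no WT counterpart. So in covered length the lists differed at the Tox2 start and at these 2 regions inside the gene. The internal regions that they shared hardly differed in width, though that at about 50 kb had more summit reads in WT. The other TOX genes differed little. Tox3 had 302 bp in KO and 372 bp in WT, and Tox4 had 2572 bp in KO and 2767 bp in WT.

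The NR4A genes encode orphan nuclear receptors that T cell receptor signals induce within hours. Together they had 28023 bp under regions in KO and 20370 bp in WT, and 1 of the 3, Nr4a1, was called longer. The 250 bases before each start are printed because all 3 hold the same short element. Capitals mark TGACG, read on either strand, the core of the cAMP response element to which CREB binds.
Nr4a1, chr15:101266596-101266845, + strand: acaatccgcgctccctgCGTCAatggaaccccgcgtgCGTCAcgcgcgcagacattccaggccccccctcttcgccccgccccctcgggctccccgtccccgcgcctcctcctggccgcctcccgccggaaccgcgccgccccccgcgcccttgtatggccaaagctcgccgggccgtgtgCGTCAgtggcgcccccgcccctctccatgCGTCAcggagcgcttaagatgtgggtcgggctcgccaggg
Nr4a2, chr2:57124004-57124253, − strand: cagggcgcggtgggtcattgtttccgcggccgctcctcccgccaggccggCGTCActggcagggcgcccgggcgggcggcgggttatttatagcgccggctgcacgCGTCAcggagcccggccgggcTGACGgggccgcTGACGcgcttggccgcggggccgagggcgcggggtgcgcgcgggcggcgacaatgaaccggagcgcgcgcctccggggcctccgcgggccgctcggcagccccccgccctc
Nr4a3, chr4:48045055-48045304, + strand: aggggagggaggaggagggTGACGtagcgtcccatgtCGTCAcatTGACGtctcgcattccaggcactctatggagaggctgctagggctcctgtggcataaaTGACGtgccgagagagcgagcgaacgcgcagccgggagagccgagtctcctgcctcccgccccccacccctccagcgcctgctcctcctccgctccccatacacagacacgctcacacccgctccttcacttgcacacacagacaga
Each of these sequences from RefSeq (GRCm38.p6) holds 4 matches to TGACG. Of all 32851 promoters 17.8% hold at least 1 match, and 0.137% hold 4 or more. This element was added to the search after the sequences were seen, and the full element TGACGTCA, present in 1.55% of promoters, was in none of them. The promoter of Batf holds 1 match to TGACG and those of Tox2 and Irf4 hold none. A match describes letters in the window and does not show that a factor binds there.

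Nr4a1 (chr15:101253902-101274795), which encodes NUR77, had 6 regions covering 8412 bp in KO and 4 regions covering 4587 bp in WT. At its start the KO region was 2899 bp wide with 97 summit reads and a fold of 25.8 in its list, and the WT region was 1168 bp wide with 34 summit reads and a fold of 9.10 in its list. The WT region began 15 bp after the start, so the Nr4a1 sequence above lay outside it, while KO covered all 250 bases. The KO region reached 778 bp farther upstream and 953 bp farther downstream than the WT region. A further region covered the 5′ end of the annotated gene in both lists, about 13 kb before the start used. It was 3435 bp wide in KO and 2101 bp in WT, with 57 summit reads in KO and 70 in WT. Of the regions beyond the gene, that about 16 kb before the start was 746 bp wide in KO (summit at −16.56 kb) and 753 bp in WT (summit at −16.15 kb), and that at 12.8 kb was 581 bp wide in KO and 752 bp in WT. The longer coverage of Nr4a1 in KO thus lay at its start, at the region near −13 kb and at 2 small KO regions of 397 and 502 bp. The outer regions were both narrower in KO, and that at 12.8 kb had 21 summit reads in KO and 40 in WT.

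Nr4a2 (chr2:57106830-57124003), which encodes NURR1, had 9932 bp in KO and 9120 bp in WT, which is 36.55% of its window in KO and 33.56% in WT. Its start region was 3606 bp wide in KO with 81 summit reads, and 3711 bp wide in WT with 90 summit reads. A second wide region inside the gene, 7 to 8 kb from the start, was 4709 bp wide in KO with 121 summit reads, and 4721 bp wide in WT with 116 summit reads. The lists hardly differed at these wide regions, and the excess in KO came mainly from a region of 829 bp at 11.87 kb that WT lacked. The window also holds LOC105244150, which overlaps the Nr4a2 start, and the lncRNA gene BB557941.

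Nr4a3 (chr4:48045078-48086447), which encodes NOR1, carried the widest region of the 7 genes in both lists. It was 7022 bp wide in KO with 152 summit reads and 6663 bp wide in WT with 140 summit reads. It ranked at percentile 99.1 for width in the KO list and 99.5 in the WT list, and it filled the 5001 bp around the start in both. All 3016 bp by which KO exceeded WT in the Nr4a3 window lay outside the 2.5 kb around the start. KO had a region of 2638 bp inside the gene at 29.98 kb (31 summit reads) and one of 1131 bp at −5.62 kb that just reaches into the window. WT had a region at neither place.

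Irf4 (chr13:30749233-30766981), a factor that scales with the strength of the T cell receptor signal, had 4 regions covering 7230 bp in KO and 1 region covering 1904 bp in WT, with a ratio of 3.66. Its start region was 4091 bp wide in KO (chr13:30747367-30751457, 85 summit reads, fold 20.4 in its list) and 1904 bp wide in WT (chr13:30748597-30750500, 44 summit reads, fold 11.7 in its list). Both summits lay about 0.1 kb after the start, 19 bp apart, and the KO region reached 1230 bp farther upstream and 957 bp farther downstream. WT had no region in the rest of the gene, where KO had 3 of 446, 1976 and 717 bp at 5.27, 11.69 and 17.5 kb. The promoter is printed because both libraries covered all of its 250 bases while the region around it differed in width. Capitals mark GGGA and CC parted by any 4 bases, the loose letters searched for NF-kappaB, and the match does not show a site of that factor.
Irf4, chr13:30748983-30749232, + strand: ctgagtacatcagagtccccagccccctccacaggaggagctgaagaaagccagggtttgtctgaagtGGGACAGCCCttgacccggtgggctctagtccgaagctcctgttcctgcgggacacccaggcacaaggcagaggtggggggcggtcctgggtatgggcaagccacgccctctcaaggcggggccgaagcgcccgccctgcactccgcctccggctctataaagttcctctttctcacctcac

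Batf (chr12:85686720-85709087), the AP-1 factor that binds with IRF4, had 3 regions in each list, all shared, covering 5827 bp in KO and 4566 bp in WT. The start region was 2492 bp wide in KO with 96 summit reads and 1900 bp wide in WT with 50 summit reads. These summits lay 1155 bp apart, at 0.88 kb from the start in KO and −0.28 kb in WT, so the reads are not from the same place. The region in the 3′ part of the gene, about 19 kb from the start, was 2467 bp wide in KO with 125 summit reads and 2030 bp wide in WT with 112 summit reads. The small region between them was 868 bp wide in KO and 636 bp in WT. Each Batf region was wider in KO, by ratios of 1.215 to 1.365, all short of 1.5. Of the motifs searched for AP-1 (TGANTCA), NFAT (TGGAAA), the composite BATF and IRF site (the AP-1 letters, any 4 bases, then GAAA) and NR4A proteins (AAAGGTCA), none was found in the 250 bases before the starts of the 6 genes with a promoter entry. These letters were found in 6.75%, 18.6%, 0.0974% and 1.34% of all promoters of that length, in that order. Only these exact letters were searched, so shorter or variant forms of the sites were not counted.

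At the starts alone, within 2.5 kb on either side, the median difference was 1558 bp over the 7 genes and −14 bp over the 11581 genes with a promoter entry and coverage. Tox (2762 bp in KO, 1204 bp in WT), Tox2 (1717 bp in KO, 0 bp in WT), Nr4a1 (2899 bp in KO, 1168 bp in WT) and Irf4 (4091 bp in KO, 1904 bp in WT) were longer in KO by the ratio of 1.5 and none was shorter, against 11.0% and 5.58% of all such genes. Batf had 2492 bp in KO and 1900 bp in WT. Nr4a2 and Nr4a3 stood at the other end, with differences of −105 bp and 0 bp. Within 1 kb of the start the median difference was 364 bp and Irf4 was no longer called, and Tox2 was not called with 20000 regions per list. The 4 genes longer at the start are the same 4 that were longer over the whole window, which includes the start. The Tox2 start was itself chosen among several entries by its KO coverage.

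Among regions that overlapped in pairs, 17 pairs lay at the 7 genes. The KO region was at least 1.5 times as wide in 5 of them (2 at Tox, 2 at Nr4a1 and 1 at Irf4), against 9.72% of all 32131 such pairs, and in none was it narrower by that ratio, against 20.4% of all pairs. The median width ratio was 1.145 at the 7 genes and 0.911 over all pairs. T cell markers differed in the same direction, with a median difference in covered length of 8726 bp.

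**Figure D3:**
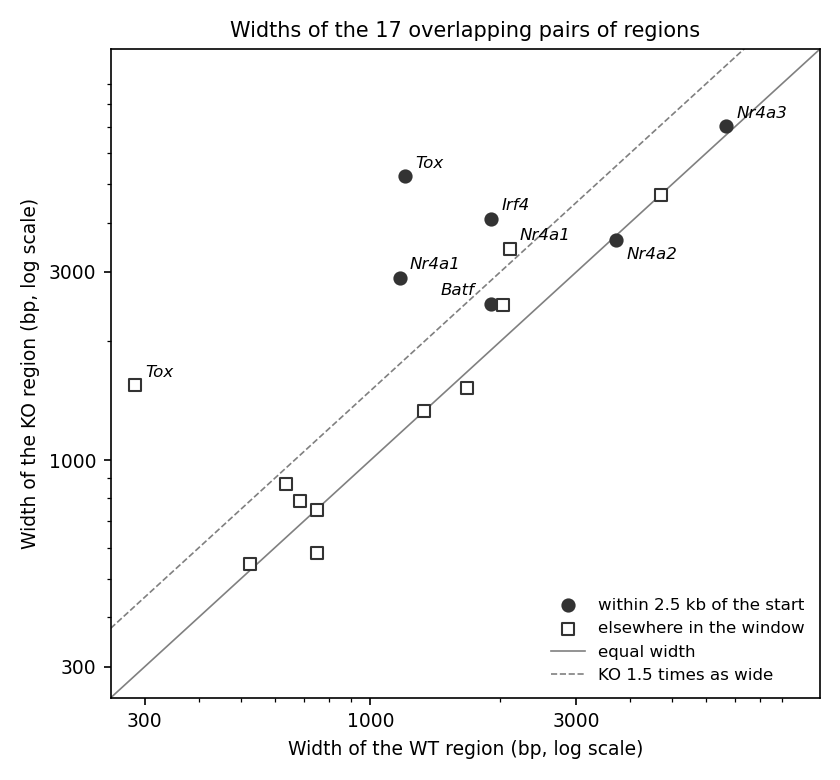
Width in bp of the KO region against the overlapping WT region for the 17 pairs at the 7 genes, on log axes, with filled points for regions within 2.5 kb of a start. The points of Tox, Irf4 and Nr4a1 above the dashed line are those at least 1.5 times as wide in KO, and those of Nr4a2 and Nr4a3 lie near the line of equal width.

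Related genes were read by the same rule. Of 7 other IRF genes, 4 were called longer in KO and 0 shorter, with a median difference of 2669 bp, where 14.1% of all genes with coverage were called longer and 11.8% shorter. Irf2 had 16786 bp in KO and 10554 bp in WT, Irf8 had 7816 bp in KO and 4527 bp in WT, Irf1 had 8552 bp in KO and 5578 bp in WT, and Irf5 had 6421 bp in KO and 3752 bp in WT. Irf7, with 650 bp more in KO, Irf9, with 345 bp more, and Irf3, at −338 bp, did not pass the ratio. Within 2.5 kb of the start Irf8 had 5001 bp in KO and 2742 bp in WT, and Irf5 had 3786 bp in KO and 2578 bp in WT. There Irf1 had 4745 bp in KO and 4633 bp in WT, and Irf2 had 4501 bp in KO and 4503 bp in WT. The windows of Irf3, Irf5, Irf7 and Irf9 hold other coding genes.

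Among the BATF paralogs and the JUN and FOS genes of AP-1 no gene passed the ratio. Of the 9 other BATF and AP-1 genes 0 were called in either direction, and the median difference was −269 bp. Jund had 8895 bp in KO and 6468 bp in WT. Fosl2 had 8982 bp in KO and 11159 bp in WT, Fosl1 had 9795 bp in KO and 11671 bp in WT, and Jun had 5478 bp in KO and 6941 bp in WT. Batf2 had 1614 bp in KO and 1883 bp in WT, and Batf3 had 3156 bp in KO and 2798 bp in WT.

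Upstream of these factors, 4 of 13 calcium and NFAT genes were called longer in KO and 1 shorter, against 14.1% and 11.8% of all genes with coverage. Nfatc1, the NFAT gene that receptor signals induce, had 28174 bp in KO and 12469 bp in WT. Ppp3cc, a catalytic subunit of calcineurin, had 16331 bp in KO and 3089 bp in WT. Nfatc3 had 11543 bp in KO and 5102 bp in WT, and the calcium sensor gene Stim1 had 12668 bp in KO and 7135 bp in WT. Rcan1, a calcineurin inhibitor and NFAT target, had 3204 bp in KO and 6148 bp in WT. Nfatc2 had 20593 bp in KO and 24091 bp in WT, within the ratio.

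Of 16 other regulators linked to exhaustion, 8 were called longer in KO and 0 shorter, with a median difference of 3762 bp, beside 14.1% longer and 11.8% shorter among all genes with coverage. The largest differences were at Bach2, with 65570 bp in KO and 22583 bp in WT, and at Tcf7, which encodes TCF-1 of stem-like cells, with 23631 bp in KO and 3997 bp in WT. Foxo1 (20763 bp in KO, 6185 bp in WT) and Runx3 (18464 bp in KO, 3944 bp in WT) followed. Of 14 checkpoint receptor and surface genes, 13 of them with coverage, 6 were called longer in KO and 0 shorter by the rule with that same background, with a median difference of 1975 bp. Cxcr6 had 12541 bp in KO and 833 bp in WT, Btla had 7204 bp in KO and 857 bp in WT, Cd101 had 9450 bp in KO and 3342 bp in WT, and Ctla4 had 5121 bp in KO and 1059 bp in WT. Beside these lists, the T cell markers differed by a median of 8726 bp. The windows of Jund, Fosl1, Nfatc3, Stim1, Tcf7 and Cxcr6 hold other coding genes, whose regions are counted with theirs.

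**Figure D4:**
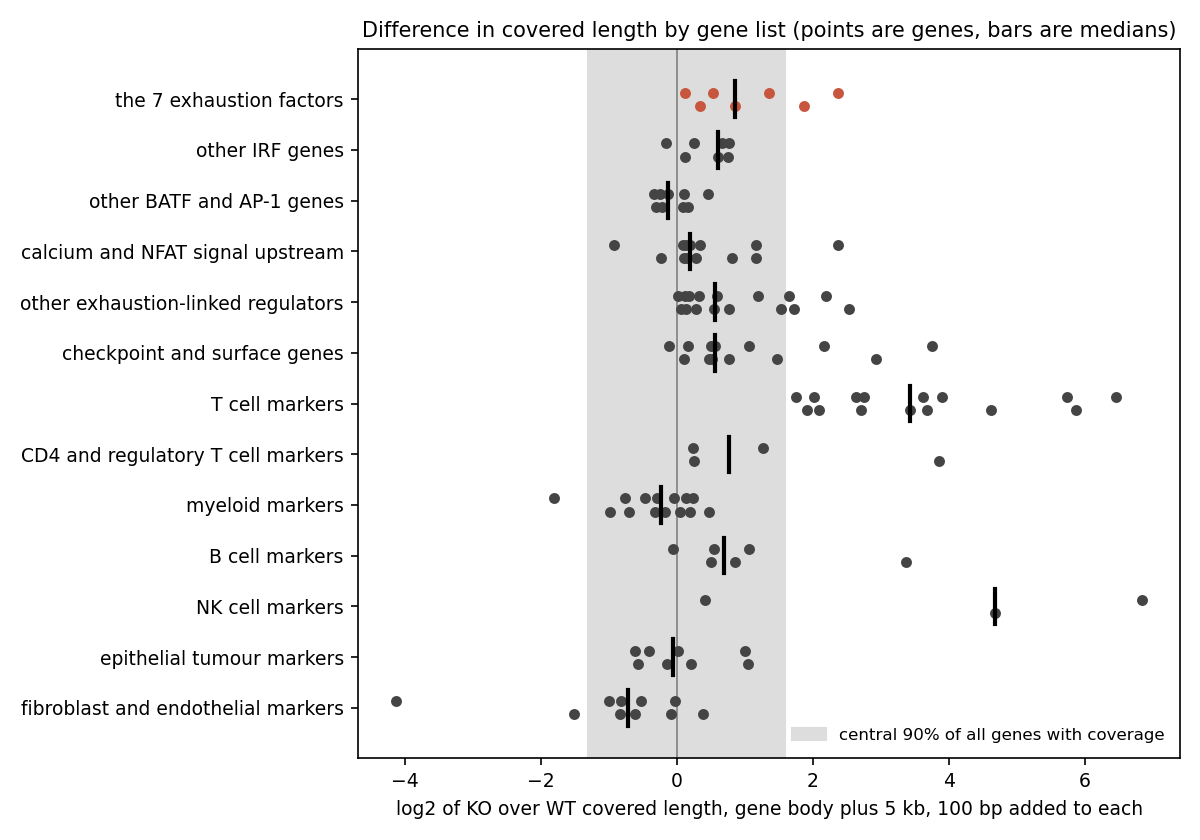
Log2 of KO over WT covered length (gene body plus 5 kb, 100 bp added to each) for each gene with coverage, by list, with medians as bars and the central 90% of all genes with coverage shaded. The median of the 7 exhaustion factors is 0.86 on this log2 scale, that of the other BATF and AP-1 genes is −0.12 and that of the T cell markers is 3.43.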

How the data were processed

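Peak lists of the 2 H3K4me3 libraries (1 KO, 1 WT) of a series of 6 samples were used. The other samples (H3K27me3 and input) were not used here. MACS2 and the GRCm38 (mm10) build are named in the submitters' processing notes. MACS2 settings, the aligner, filters and any use of the input were not given in the sources used here. The deposited fold is a ratio of summit reads to a background value, as MACS2 writes it. That background was the same at many summits, so the fold need not reflect the surroundings of a region. For example, KO regions at Tox and Nr4a1 with 18 summit reads had the same fold, 5.25. The deposited −log10 p and −log10 q belong to the same summit, and the lowest −log10 q was 2.02 in KO and 2.00 in WT. The deposited score is 10 times the −log10 q and was not used. The deposited start, end and summit positions are other whole-number values. Fold values were used only within 1 list, and widths depend on depth and on the calling threshold. Depth is not stated in the lists.

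Whole reads at each summit were recovered, a step added after the data were seen, from fold = (reads + 1)/(background + 1) and the Poisson p. They matched within 0.001 of the −log10 p for 45834 of 45836 KO regions and 48011 of 48014 WT regions with a −log10 p under 250. They were not scaled between libraries, whose median background over all summits was 2.62 reads in KO and 2.85 in WT, and the lowest called summit held 10 reads in each.

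Only chromosomes 1 to 19, X and Y were analysed. Gene positions (21883 protein-coding genes by symbol) and promoter sequences came from RefSeq tables of GRCm38.p6. Of several starts of a gene, that with the most coverage over both lists was used. For Tox, with no promoter entry, the end of higher coordinate served as the start. The tables give no exons, so exons and introns were not told apart. Covered length and overlap counts were tested on simulated regions, and the ratio rule on simulated lengths. The other steps were not tested in this way. Tables were handled in pandas 2.3.3 and NumPy 2.4.6 under Python 3.11.15, intervals came from SciPy 1.17.1, and plots from Matplotlib 3.10.9.

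The 7 genes and all lists were chosen with earlier results of these data known. The text names the 7 genes, their TOX, IRF and BATF paralogs, and up to 4 genes of each further list with the largest difference in covered length. Rcan1 and Nfatc2 are named as well, after their values were seen. One gene that this rule names is not reported here.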

Additional observations from a re-analysis of the deposited data

How the results depend on the processing

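With 1 library per genotype, the lists were recomputed under other windows, thresholds and rules, and no library could be left out. The median difference in covered length over the 7 genes (3069 bp) was 2894 bp over the gene body alone, 3752 bp with 10 kb added, 3016 bp where −log10 q reached 5, 2645 bp where it reached 10 and 1261 bp with 20000 regions per list. At the starts the median (1558 bp) was 364 bp within 1 kb, 1717 bp within 5 kb, 1717 bp where −log10 q reached 10 and 592 bp with 20000 regions per list. With any difference counted, 7 genes were longer in KO. With 20000 regions per list, 12 KO and 10 WT regions were left at the genes, 10 of each shared, and Nr4a2 stood at −117 bp. Between 3 and 5 genes were called longer and 0 shorter under every other setting. Tox and Irf4 were among those called longer in each, Tox2 was not called with 20000 regions per list, Nr4a1 not with 10 kb added, where −log10 q reached 10 or at a ratio of 2, and Nr4a3 was called over the gene body alone and with 2 or 10 kb added. At the starts Irf4 was not called within 1 kb and Tox2 not with 20000 regions per list. The causes were not tested. No paired analysis was possible because each genotype has 1 library.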
